A study of Mus musculus with 11 samples.

Results

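Peripherin (Prph), vimentin (Vim), the neurofilament light, medium and heavy chains (Nefl, Nefm, Nefh), α-internexin (Ina) and nestin (Nes) are the intermediate filament genes of neurons and their precursors, and they are described here in KP1 cells with and without irradiation. KP1 is a mouse small cell lung cancer (SCLC) cell line, a neuroendocrine tumor line that lacks functional Rb and p53 and is grown in RPMI medium. The bulk RNA sequencing covered 2 control libraries, labelled untreated and numbered 2 and 3, and 3 irradiated libraries, numbered 1 to 3, from cells given 5 Gy and collected 24 h later. All 5 libraries came from this single line, and the labels do not say whether they were separate cultures, so the errors and p values measure only the spread between these libraries. The comparison addressed how SCLC cells respond to radiation at the RNA level. The 7 genes were chosen on measured values of this same comparison, out of 35017 gene symbols, and all 7 were among the 14091 genes that passed the filter on low counts. Their fold changes are therefore given as a description and without a test.

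Intermediate filaments are rope-like polymers of proteins that share a central α-helical rod. Type III proteins such as peripherin and vimentin can build filaments on their own, whereas in mature neurons the type IV proteins (the neurofilament chains and α-internexin) assemble together into neurofilaments that set axon caliber. Peripherin is best known from peripheral and autonomic neurons and from neuroendocrine cells, vimentin from mesenchymal cells, and nestin from neural progenitors.

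The members share the rod, and the end of the rod is among its best conserved segments. The following 30 bases, read from the coding part of the main GENCODE M21 transcript of each gene (GRCm38), encode this segment, and capitals mark the 16 bases that all 7 genes have in common.
Prph: aCcTACAGgAagCTacTgGAaGggGAggAg
Vim: aCcTACAGgAagCTgcTgGAaGgcGAggAg
Nefl: gCtTACAGaAaaCTctTgGAaGgcGAagAg
Nefm: gCgTACAGgAaaCTccTaGAgGggGAagAg
Nefh: gCtTACAGaAagCTccTgGAaGgcGAagAg
Ina: gCtTACAGgAagCTccTgGAaGgtGAagAg
Nes: aCaTACAGgActCTgcTgGAgGctGAgaAc
The stretches of Prph and Vim had 28 of 30 bases in common, as did those of Nefl and Nefh and those of Nefh and Ina, while Nefl and Nes shared 17. What follows the stretch sets the members apart. Only 67 codons remain in Prph and 58 in Vim, against 97 in Ina, 145 in Nefl, 441 in Nefm, 682 in Nefh and 1553 in Nes. In Nefm and Nefh this long tail forms the side arms of the neurofilament. The gene structures differ in the same place: the stretch lies within 1 exon in Prph and Vim, each of which has 9 exons, and is split between 2 exons in each of the 5 type IV genes, which have 3 or 4. Between the main transcripts of any pair of members the longest identical run was 12 to 35 bases, the longest being that of Prph and Nefm.

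In the GRCm38 annotation all 7 are protein-coding genes, and 5 lie on chromosomes of their own. Prph lies on chromosome 15 (99055174 to 99058978, plus strand), Vim on chromosome 2 (13573927 to 13582826, plus), Ina on chromosome 19 (47014698 to 47025327, plus), Nes on chromosome 3 (87971078 to 87980451, plus) and Nefh on chromosome 11 (4938754 to 4948064, minus). Nefl (68083863 to 68089095, plus) and Nefm (68082590 to 68124846, minus) are neighbors on chromosome 14. The main Nefm transcript lies 30187 bases away from Nefl at its nearest end, but the longer transcript Nefm-202 runs across Nefl on the opposite strand and shares 1108 of its 3380 exonic bases. Whether the counting used the strand is not stated, so reads in that stretch cannot be assigned to 1 gene with certainty. Nefm-202 was given between 25.4 and 54.6 estimated reads per library, or 1.27% to 6.87% of the Nefm reads.

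The deposited estimated reads summed to 21185956 to 31036317 per library. The libraries differed in the transcripts that their reads came from. An average read came from a transcript of 5463 and 4729 bases in the controls and of 3715, 3625 and 3998 bases in the irradiated libraries, and control replicate 2 stood apart with the longest. TPM is Salmon's abundance of transcripts, a level scaled for transcript length and to the same total in each library. The neuroendocrine markers Chga, Syp, Insm1, Ncam1, Calca, Uchl1 and Epcam had reads in every library. Chga, a secretory granule gene, lay at 436 and 396 TPM in the controls and at 278, 391 and 475 TPM in the irradiated libraries, and Syp, a vesicle gene, between 49.2 and 73.9 TPM in all 5. Several of these markers moved with irradiation. Ncam1 fell from a mean of 254 TPM, with 354 and 153 TPM in control replicates 2 and 3, to 69.5 TPM (log2 fold change -1.20, edgeR Benjamini-Hochberg adjusted p = 0.022). Uchl1 (567 to 895 TPM, 1.14, edgeR adjusted p = 0.023) and Epcam (13.4 to 27.6 TPM, 1.34, edgeR adjusted p = 0.018) rose. So did Calca (71.0 to 112 TPM, 1.18, edgeR adjusted p = 0.047) and, on the scale of reads, Syp (0.64, edgeR adjusted p = 0.031). Of these 5, Epcam alone passed with an offset that removes the trend with transcript length (1.17, adjusted p = 0.043). Their part in the results was not tested. Apart from Pdgfra, markers of other cell types were mostly low, and their part in the results was not tested. The only one of them called was Anxa2, a marker of non-neuroendocrine tumor cells, which was higher after irradiation (2.37 to 6.34 TPM, 1.7, edgeR adjusted p = 0.022). With the length offset Anxa2 did not pass (edgeR adjusted p = 0.062). The 8 markers of non-neuroendocrine tumor cells summed to 9.40 to 14.9 TPM in control and 13.7 to 17.6 TPM in irradiated libraries, the 7 fibroblast markers to 57.2 to 67.5 and 37.0 to 51.9 TPM, the 6 macrophage markers to 4.55 to 6.91 and 1.18 to 1.62 TPM, and the 4 Schwann cell markers to 1.58 to 3.17 and 1.35 to 1.77 TPM. Nearly all of the fibroblast sum was Pdgfra, which lay between 36.6 and 56.7 TPM, while Col3a1 and the macrophage gene Tyrobp were at 0 reads in all 5 libraries and Col1a1 reached 13.5 TPM in control replicate 2 alone. In bulk RNA, fewer cells that express a gene and less RNA per cell cannot be told apart.

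Prph had the highest fold change of the members. Its level was 65.9 and 67.7 TPM in control replicates 2 and 3, and 126, 116 and 121 TPM in irradiated replicates 1, 2 and 3. The irradiated libraries were all above both controls, and the gap between the groups was wider than the range within either. The means were 66.8 ± 1.27 (SD, n = 2) and 121 ± 5.17 TPM (SD, n = 3), a ratio of 1.81. On the CPM scale (reads of a gene relative to the library total, adjusted by TMM and not for length), which is the scale of the fold changes, the controls held 32.4 and 36.5 and the irradiated libraries 90.8, 87.6 and 88.1, a ratio of 2.58 and a log2 fold change of 1.37 (SE 0.15). The Prph reads behind these values numbered 926 and 972 in the controls and 2279, 1919 and 2418 in the irradiated libraries.

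The other type III gene, Vim, showed no such separation. It lay at 16.2 and 15.7 TPM in the controls and at 22.7, 14.7 and 17.5 TPM in the irradiated libraries, with irradiated replicate 2 below both controls and the other two above. Its log2 fold change was 0.33 (SE 0.23), and the level of Prph relative to Vim within a library went from 4.07 and 4.30 in the controls to 5.55, 7.84 and 6.92 in the irradiated libraries.

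**Figure D1:**
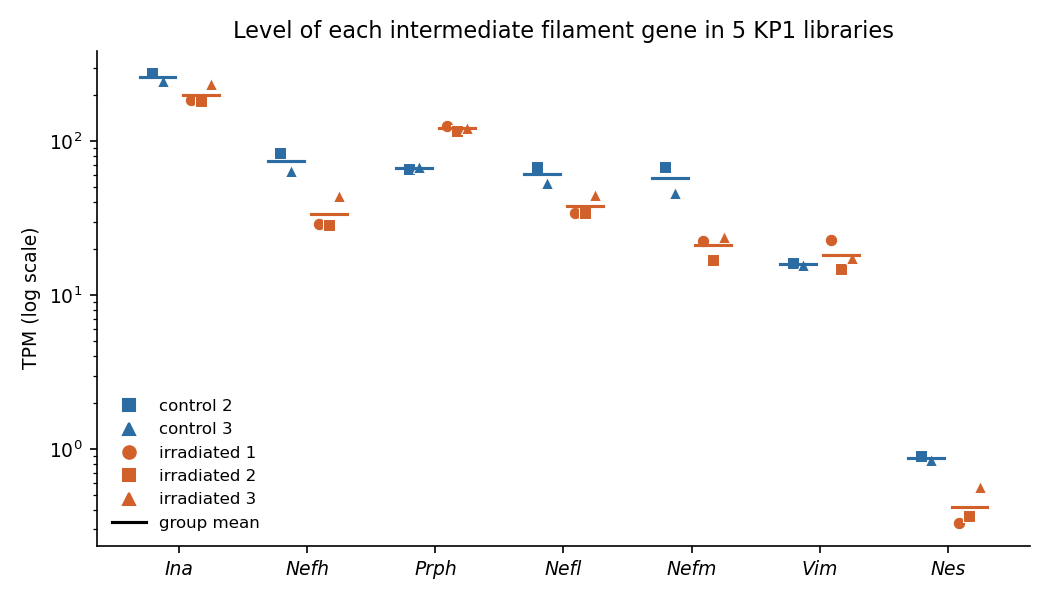
TPM of each gene (log axis) in the 2 control (blue) and 3 irradiated (orange) libraries, with the group means as lines. Irradiated libraries lay above both controls for Prph, below both for Ina, Nefh, Nefl, Nefm and Nes, and on both sides for Vim. In CPM the groups of Ina overlapped. On that scale all irradiated libraries lay above both controls for 30.1% of all genes tested and below both for 29.3%. The shares over all genes were not computed in TPM.

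The 3 neurofilament chains all had lower values in the irradiated libraries. Nefm, the medium chain whose phosphorylated tail spaces the filaments, showed the steepest difference, at 68.4 and 46.2 TPM in the controls against 22.5, 16.9 and 23.7 TPM after irradiation. The means were 57.3 ± 15.7 (SD, n = 2) and 21 ± 3.59 TPM (SD, n = 3), and the log2 fold change on the CPM scale was -1.16 (SE 0.21). The groups did not overlap, and the spread was wider between the controls than among the irradiated libraries. Nefh, the heavy chain and the last to appear as axons mature, was at 84.0 and 63.7 TPM in the controls and at 29.0, 28.4 and 44.2 TPM in the irradiated libraries, with a log2 fold change of -0.85 (SE 0.21). Irradiated replicate 3 had the highest Nefh level of its group, still below control replicate 3. Nefl, the core subunit on which the other chains assemble, was at 67.9 and 53.7 TPM in the controls and at 34.1, 34.3 and 44.6 TPM after irradiation, with a log2 fold change of -0.41 (SE 0.17). In CPM its groups nearly met, since control replicate 3 held 88.7 and irradiated replicate 3 held 87.0.

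The proportions among the chains differed as well. The TPM ratio of Nefl to Nefm was 0.99 and 1.16 in the controls and 1.52, 2.02 and 1.89 in the irradiated libraries, and that of Nefl to Nefh was 0.81 and 0.84 in the controls and 1.18, 1.21 and 1.01 in the irradiated libraries. In both ratios the irradiated libraries were all above the controls, so the light chain RNA made up a greater part of the neurofilament RNA. Nefl and Nefm are of like transcript length (3380 and 3341 bases), whereas Nefh is longer (3994 bases). The part of length in these ratios was not tested.

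Ina, which co-assembles with the neurofilament chains, was the most abundant member in every library. It lay at 276 and 244 TPM in the controls and at 184, 182 and 233 TPM in the irradiated libraries, or 260 ± 22.5 (SD, n = 2) and 200 ± 29.1 TPM (SD, n = 3). The side depended on the scale. All irradiated libraries were below both controls in TPM, whereas in CPM the controls held 449 and 385 and the irradiated libraries 360, 374 and 434, so that the groups overlapped, with a log2 fold change of -0.10 (SE 0.16).

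Nes, the progenitor filament gene, was barely expressed. It lay at 0.91 and 0.84 TPM in the controls and at 0.33, 0.37 and 0.56 TPM in the irradiated libraries, resting on 83 and 70 reads against 32, 32 and 57. All irradiated values were below both controls, but with so few reads the log2 fold change of -0.78 had the largest error of the members (SE 0.44).

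Over all 14091 genes tested, 12.7% were called higher and 13.0% lower at adjusted p under 0.05 (edgeR's quasi-likelihood test, Benjamini-Hochberg). In CPM, 1 member (Prph) had all irradiated libraries above both controls, against 30.1% of all genes. For 4 members (Nefl, Nefm, Nefh and Nes) all of them were below, against 29.3%. The members were chosen from this comparison, so nothing is read from these counts. The median log2 fold change was -0.41 over the members and 0.02 over all genes tested.

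The order of the levels was not the same in both groups. In the controls, Ina was followed by Nefh, Prph, Nefl and Nefm, whose ranges overlapped from neighbor to neighbor between 46.2 and 84.0 TPM, then by Vim and Nes. In the irradiated libraries Ina was followed by Prph, clear of Nefl and Nefh, whose ranges overlapped. Nefm came next and overlapped with Vim, and Nes was last. The summed level of the 7 genes was 579 and 492 TPM in the controls and 419, 392 and 485 TPM in the irradiated libraries. Of this sum Prph made up 11.4% and 13.8% in the controls and 30.1%, 29.5% and 25.0% in the irradiated libraries. The share of Nefl, Nefm and Nefh together went the other way, from 38.0% and 33.2% to 20.4%, 20.3% and 23.2%. Ina kept a share of 44% to 49.6% in all 5 libraries, with overlapping groups. Per library, Prph in TPM came to 0.30 and 0.41 times the summed neurofilament chains in the controls. In the irradiated libraries it came to 1.47, 1.45 and 1.08 times. These Prph levels include the short transcript Prph-203, described below, at 29.0 to 35.3 TPM in the irradiated libraries. The transcript Prph-201 alone did not exceed the summed chains there. It lay at 85.1, 76.2 and 87.4 TPM in irradiated replicates 1, 2 and 3, against 85.6, 79.6 and 113 TPM for the chains. Prph has shorter transcripts (1355 bases on average) than the chains (3341 to 3994 bases). The part of length in these shares and ratios was not tested.

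**Figure D2:**
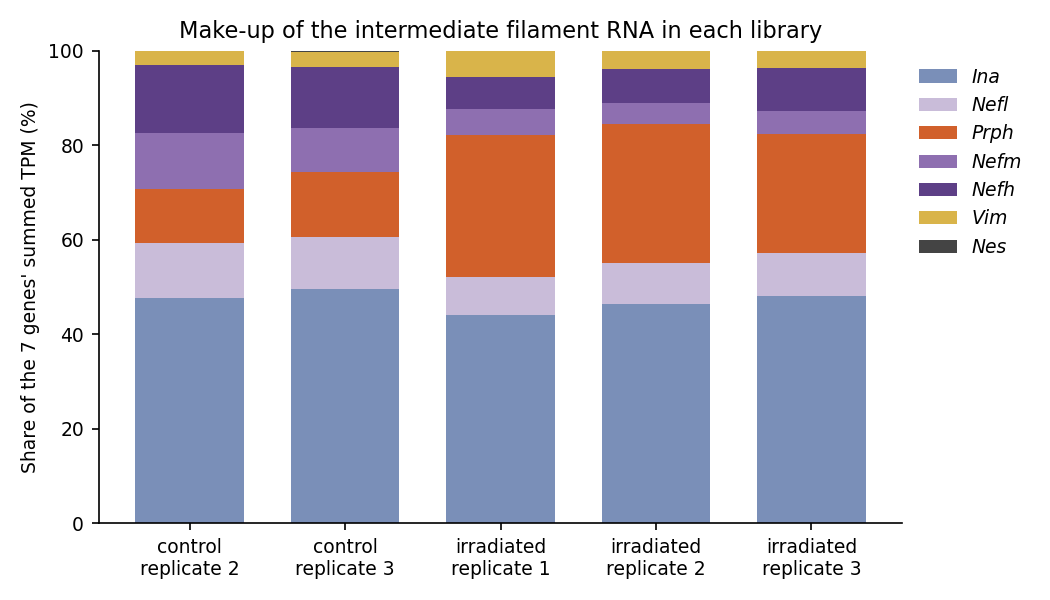
Share of each gene (%) in the summed TPM of the 7 genes, 1 bar per library. The Prph segment is 11.4% and 13.8% in the controls and 25.0% to 30.1% in the irradiated libraries, while Ina stays between 44% and 49.6%.

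The fold changes of the members followed their transcript length in part, as did those of all genes. Over all 14091 genes tested the median log2 fold change was 0.78 in the shortest length decile and -0.78 in the longest, alongside the shift in mean transcript length between the libraries. Prph (mean transcript length 1355 bases, weighted by TPM) lay in the second decile, where the median was 0.55, and Vim (1670 bases) in the third, at 0.41. The transcript Prph-201, with 87.2% to 94.1% of the Prph reads, has 1757 bases, a length of the third decile. Nefl, Nefm and Ina lay in the seventh, at -0.10, Nefh in the eighth, at -0.25, and Nes (6105 bases) in the tenth, at -0.78. Read against these medians, Prph stood above genes of its length, Nefm and Nefh stood below, Nefl was lower by less, and Vim, Ina and Nes were near theirs.

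**Figure D3:**
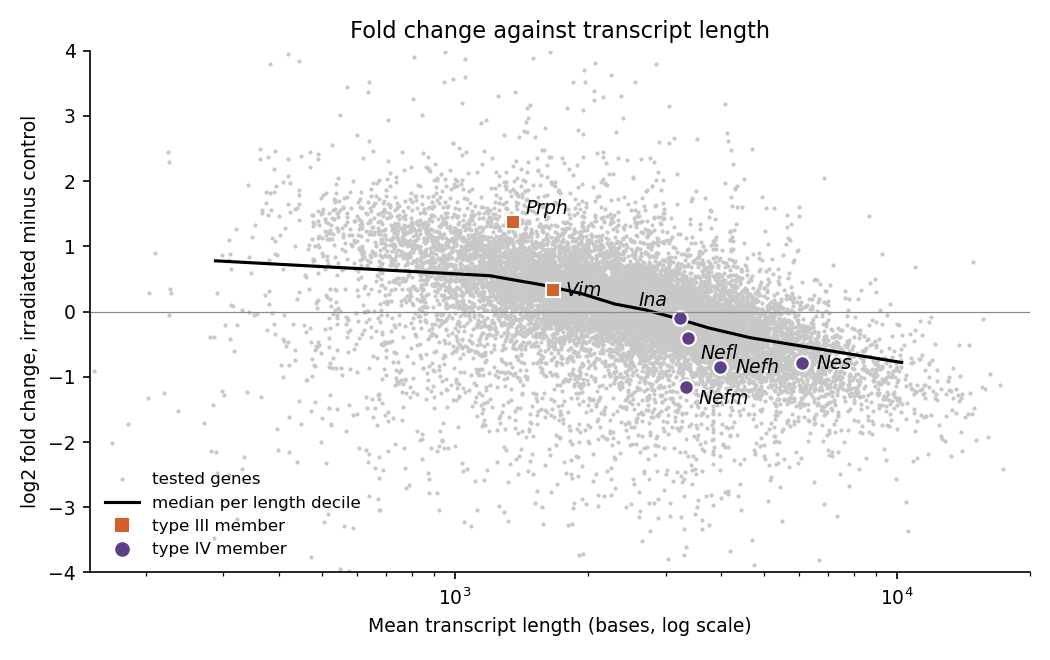
Log2 fold change, irradiated minus control, against mean transcript length (log axis) for the genes tested (grey, 65 of them outside the plotted range), with the median of each length decile as a line and the members marked by type. The line falls from 0.78 to -0.78, and Prph lies above it while Nefm, Nefh and Nefl lie below.

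The same mean transcript length was included as a smooth offset, which removes any trend with length in a library whether technical or biological. This offset gave a log2 fold change of 0.93 (SE 0.14) for Prph, -0.99 (SE 0.20) for Nefm and -0.52 (SE 0.17) for Nefh. For Nefl it left -0.23 (SE 0.15). The values of the other members came close to 0, at 0.01 (SE 0.25) for Vim, 0.05 (SE 0.14) for Ina, which thereby changed sign, and -0.12 (SE 0.42) for Nes. The median over the members with this offset was -0.12, and that over all genes tested 0.04.

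**Figure D4:**
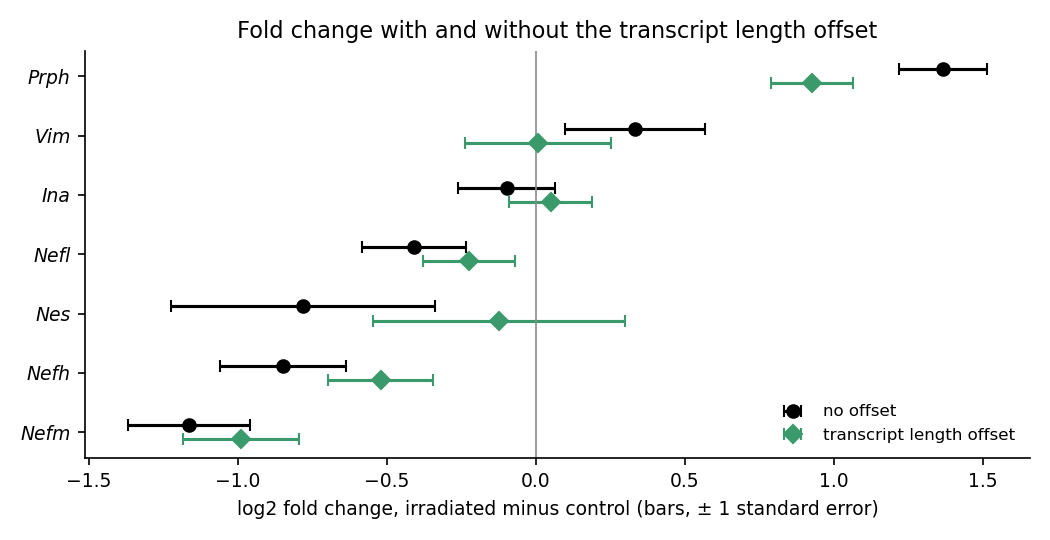
Log2 fold change of each member, irradiated minus control, without an offset (circles) and with the transcript length offset (diamonds), with bars of 1 standard error from the edgeR fit. Prph goes from 1.37 to 0.93, Nefh from -0.85 to -0.52 and Nefm from -1.16 to -0.99, while Vim, Ina and Nes lie near 0 with the offset.

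Control replicate 2 carried part of several of these differences. Without it, the log2 fold change was 1.30 for Prph and -0.81 for Nefm, and it was -0.59 for Nefh, -0.19 for Nefl, 0.52 for Vim, -0.69 for Nes and 0.04 for Ina. Prph, Nefm, Nefh and Nes thus kept most of their size with control replicate 3 as the only control. The Nefm value still moved by more than its within-group SD of 0.29 in log2 CPM. The Nefl and Vim values moved by over 1.5 times and that of Ina changed sign.

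The reads of each gene came mainly from 1 annotated transcript. For Prph, the transcript Prph-201 held 87.2% to 94.1% of the reads, without separation of the groups (94.1% and 87.2% in the controls, 90.9%, 88.7% and 92.0% after irradiation). The short transcript Prph-203, of 397 bases, held 2.45% to 5.70% of the reads but, being short, 23.4 and 28.2 TPM in the controls and 29.0 to 35.3 TPM in the irradiated libraries, so that the difference in Prph in TPM rested more on Prph-201. Prph-201 alone was at 37.7 and 40.5 TPM in the controls and at 85.1, 76.2 and 87.4 TPM after irradiation. Prph-204 took 0.19% of the reads in control replicate 2 and 5.59% to 8.74% in the other 4 libraries. For Vim, Vim-201 held 77.3% to 89.9% and the retained-intron transcript Vim-204 7.76% to 22.0%, again with the groups overlapping. All Nes reads were given to Nes-201 except in irradiated replicate 2, where all 32 went to Nes-203. Nefl, Nefh and Ina have 1 transcript each in the files.

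The deposited data measure RNA amounts only, and the sequences before the genes' starts are given as context. The 250 bases before the RefSeq start are shown for Prph, the member with the highest fold change, and for Ina, the most abundant one (GRCm38.p6, plus strand, chr15:99054924-99055173 and chr19:47014431-47014680). Capitals mark matches, on either strand, to 3 motifs. The TATA box was searched as TATAAA. The GC box was searched as GGGCGG, which reads CCGCCC from the opposite strand. An E-box of the kind bound by basic helix-loop-helix factors was searched as CAGCTG, which is its own reverse complement.
Prph: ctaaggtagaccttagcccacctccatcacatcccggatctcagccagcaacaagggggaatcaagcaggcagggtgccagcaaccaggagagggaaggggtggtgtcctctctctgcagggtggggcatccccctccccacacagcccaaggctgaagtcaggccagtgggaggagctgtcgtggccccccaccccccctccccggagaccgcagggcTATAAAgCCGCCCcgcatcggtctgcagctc
Ina: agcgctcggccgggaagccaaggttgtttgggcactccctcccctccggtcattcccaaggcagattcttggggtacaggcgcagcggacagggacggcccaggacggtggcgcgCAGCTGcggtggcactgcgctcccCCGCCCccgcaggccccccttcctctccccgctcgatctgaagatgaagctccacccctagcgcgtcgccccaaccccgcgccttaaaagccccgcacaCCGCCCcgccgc
The Prph window held TATAAA starting 31 bases before the start and CCGCCC at 24 bases, and the Ina window held CCGCCC at 111 and 12 bases and CAGCTG at 135 bases. The RefSeq window of Vim also held TATAAA, at 32 bases, but that window (from 13574061 to 13574310) lies downstream of the start of the GENCODE transcript Vim-201 at 13573952, so it is not sequence before that start. The Nes window held CCGCCC at 73 and 62 bases. The core hypoxia element ACGTG was in none of these 4 windows. Among 32851 RefSeq windows of the same length, 12.4% held TATAAA, 32.7% GGGCGG, 13.0% CAGCTG and 16.6% ACGTG, on either strand. A match is a description of letters only. Nefl, Nefm and Nefh had no window here.

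By the root mean square difference of their centred log2 CPM over the 5 libraries, the genes most like each member were sought among 12401 genes with a mean CPM of at least 1. For Prph these were Itm2c (0.01), Pgk1, a glycolytic enzyme (0.04), and the ribosomal protein gene Rps3a1 (0.06), with log2 fold changes of 1.39, 1.34 and 1.31. None of the other members was near Prph, the closest being Vim at 0.56. For Nefm the closest genes were Cbl (0.04), Emsy (0.04) and Gm9531 (0.04), and for Nefh Zfp111 (0.03), the axon degeneration gene Sarm1 (0.04) and Mgat4a (0.05). Nefl was closest to the microtubule-associated protein gene Map6 (0.02), then to Gm14326 and Stau1 (both 0.03), and Ina to Tbc1d16 (0.02), Iglon5 (0.02) and Exoc7 (0.02). Vim was closest to Brinp1, Gla and Aar2 (0.04 to 0.05) and Nes to Fam120a, Sema3c and Mcm3ap (0.04 to 0.06). Among the members themselves, Nefh and Nes were the most alike (0.11), followed by Nefl and Ina (0.16). The genes with Gm symbols, Gm9531 and Gm14326, may share reads with near-identical copies.

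Genes that act together with these filaments were followed in 8 lists of 91 genes, of which 72 passed the filter. Of these, 11 were called higher and 21 lower (edgeR, Benjamini-Hochberg adjusted p under 0.05), beside 12.7% and 13.0% of all genes tested. Their median log2 fold change was -0.12, beside 0.02 over all genes tested, and it changed sign to 0.08 with the transcript length offset, beside 0.04. With that offset 4 were called higher (among them Krt7, Stmn3 and Tubb2b) and 2 lower (Macf1 and Map1b), and all 6 were also among the calls without it. Without control replicate 2 the counts were 0 and 5.

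The linker and transport genes that were called were lower, and their transcripts are long. Of the 6 plakins tested, cytolinkers that tie intermediate filaments to actin, microtubules and junctions, 4 fell and none rose, where 13.0% of all genes were called lower. The median log2 fold change of the list was -1.41 and its median transcript length 9480 bases, in the longest decile, whose median was -0.78. With the length offset the median of the list was -0.20. Plec, which encodes plectin, went from 37.9 to 10.5 TPM (log2 fold change -1.57, SE 0.21, edgeR adjusted p = 0.0081), and Dst from 36.5 to 11.7 TPM (-1.48, SE 0.23, edgeR adjusted p = 0.0090). For Plec and Dst the offset left -0.32 and -0.44 (edgeR adjusted p = 0.13 and 0.11), and Macf1 was the only plakin called. The list of 5 motor genes had a median of -0.75 without and -0.13 with the offset. Of these genes 3 fell, beside 13.0% of all genes called lower. Among them were the dynein heavy chain gene Dync1h1 (-2.22, SE 0.37, edgeR adjusted p = 0.0090) and the myosin gene Myo5a (-1.49, SE 0.26, edgeR adjusted p = 0.0098). Control replicate 2 had by far the highest Dync1h1 level, at 296 TPM against 124 in the other control and 31.0 to 46.9 in the irradiated libraries, and with the offset neither motor passed (edgeR adjusted p = 0.053 and 0.073).

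Genes of filament phosphorylation, chaperoning and turnover went both ways, with 3 of 18 higher and 6 lower, beside 12.7% and 13.0% of all genes. Their median was 0.04 (0.05 with the length offset). Hspb1, a small heat shock protein that binds filaments, rose from 2.35 to 7.56 TPM (1.90, SE 0.45, edgeR adjusted p = 0.020). Its reads were few, at 25 and 20 in the controls and 76, 66 and 86 in the irradiated libraries. The kinase gene Rock2 fell from 38.5 to 16.0 TPM (-0.86, SE 0.14, edgeR adjusted p = 0.0090). With the length offset neither passed (edgeR adjusted p = 0.097 and 0.61).

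The neuronal microtubule and growth cone genes divided as well, with 7 of 18 higher and 6 lower, beside 12.7% and 13.0% of all genes. Their median was 0.19, and 0.25 with the length offset. The tubulin gene Tubb2b (0.90, SE 0.18, edgeR adjusted p = 0.012) and the stathmin gene Stmn3 (1.44, SE 0.29, edgeR adjusted p = 0.013) rose, and both also passed with the offset (edgeR adjusted p = 0.030 and 0.035). Map1b fell from 266 to 48.8 TPM (-2.18, SE 0.33, edgeR adjusted p = 0.0090) and also passed with the offset (-1.02, edgeR adjusted p = 0.036). Control replicate 2 held 359.5 TPM of Map1b and control replicate 3 held 173 TPM. Its relative Map1a (-1.42, SE 0.28, edgeR adjusted p = 0.012) did not pass with the offset (-0.40, edgeR adjusted p = 0.19). The tubulin genes are near-identical over much of their length, and how their reads were split is uncertain.

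**Figure D5:**
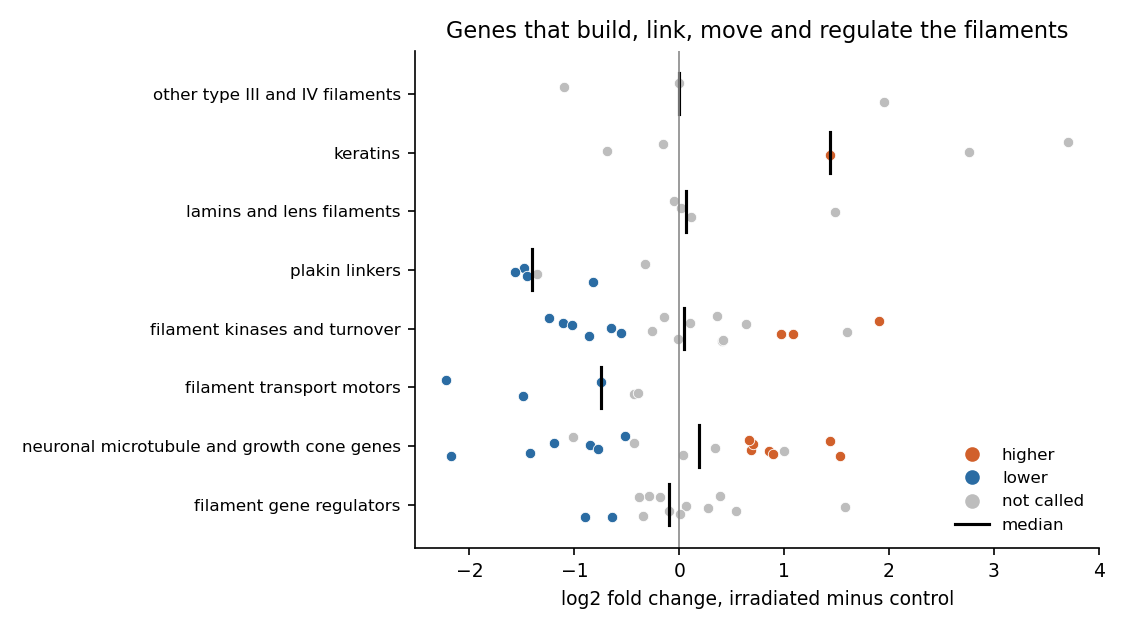
Log2 fold change, irradiated minus control, of the 72 tested genes in 8 lists related to the filaments, with genes called higher in orange, lower in blue and not called in grey, and the median of each list as a bar. Without the length offset the plakins and motors lie below 0, and the kinases, chaperones and microtubule genes lie on both sides.

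Among other intermediate filaments, 1 of 5 keratins tested rose, beside 12.7% of all genes called higher. Krt7, a simple epithelial keratin, went from 6.26 to 9.57 TPM (1.43, SE 0.32, edgeR adjusted p = 0.016), with irradiated replicate 1 highest at 13.1 TPM and replicate 2 at 7.32 TPM, close to the 7.25 TPM of control replicate 3. Krt8 and Krt18, named after their values were seen, reached 7.66 and 14.2 TPM in irradiated replicate 1 and at most 0.93 and 1.91 TPM in the other 4 libraries, and did not pass (edgeR adjusted p = 0.088 and 0.089). No other type III or IV gene (3 of 4 tested) and none of 4 lamin and lens filament genes passed. Des, the most abundant of the former, lay at 2.54 and 2.11 TPM on average (-0.01, SE 0.53, edgeR adjusted p = 0.99), and Lmnb1, the most abundant of the latter, at 320 and 250.5 TPM (-0.05, SE 0.28, edgeR adjusted p = 0.92), with the controls at 200 and 441 TPM.

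Of 13 regulators of neuronal and filament genes tested, 2 fell and none rose, a share near the 13.0% of all genes called lower. They were Sp1, a GC box binding factor (-0.90, SE 0.17, edgeR adjusted p = 0.011), and Zeb1, which represses epithelial genes (-0.64, SE 0.19, edgeR adjusted p = 0.042), and neither passed with the length offset (edgeR adjusted p = 0.15 and 0.31). Rest, the repressor of neuronal genes, named after its values were seen, lay at 0.09 to 0.17 TPM on 10 to 18 reads.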

How the data were processed

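RNA of KP1 cells was sequenced in 2 control and 3 irradiated libraries, grouped and numbered by their titles. The treatment text of the labels (5 Gy, collection at 24 h) is the same for both groups, and the controls carry the label untreated. The 6 single-cell samples were not analysed here.

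Per the submitters' processing notes, the authors quantified reads with Salmon 0.8.2 on mm10 and used DESeq2 1.22.2, and the annotation release is not given in the sources used here. The authors deposited estimated counts per transcript, which are expected counts with no normalization, and TPM, scaled for effective length within a library. Of 113116 transcripts, 112762 (99.69%) matched GENCODE M21 by identifier, with 99.87% to 99.88% of reads. Values were summed per gene symbol, and counts were rounded.

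The fit used edgeR 4.0.16 in R 4.3.3 (filterByExpr, TMM, quasi-likelihood test, Benjamini-Hochberg adjustment) on all genes. The members, the lists and the tests were chosen with earlier results of these data known. All members were named, and from each related list up to 2 genes per direction with the smallest adjusted p under 0.05 or, with none called, the gene with the highest mean CPM; for each member, the 3 nearest genes by centred log2 CPM (prior count 2). Some genes within this rule are not reported here. Alternatives were DESeq2 1.42.0, other normalizations and filters, length, effective length and GC offsets (splines with 5 degrees of freedom for length and GC), the replicate block and each library left out. In simulated counts (13797 genes, 200 of them shifted by 2 on the log2 scale), edgeR found 96.5% and made 207 calls, 14 of them false. With a simulated length trend 2527 of 2720 calls were false, against 9 of 203 with the offset (13798 genes). That trend followed the same transcript length that the offset uses, so its removal was fixed in advance. The simulated shift of 2 was larger than the fold change of any member. No simulated library stood apart as control replicate 2 did. Promoter windows came from RefSeq (GRCm38.p6), with 4 of 7 members matched. Tables and plots used Python 3.11.15, pandas 2.3.3, numpy 2.4.6 and matplotlib 3.10.9.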

Additional observations from a re-analysis of the deposited data

How the results depend on the processing

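Over the 16 alternatives the log2 fold change kept its sign for Prph (0.90 to 1.47), Nefm (-1.42 to -0.81), Nefh (-1.11 to -0.44), Nefl (-0.57 to -0.16) and Nes (-1.01 to -0.00), while it changed sign in 1 alternative for Vim (-0.15 to 0.55) and in 3 for Ina (-0.27 to 0.09). Counts of genes called moved more. Over all genes, 1792 were higher and 1834 lower, against 610 and 527 with the transcript length offset. Among the related genes, 11 and 21 became 4 and 2. With each library left out in turn the counts over all genes ranged from 97 to 2251 higher and from 179 to 1994 lower, and those of related genes from 0 to 17 and from 5 to 20, the lowest without control replicate 2, when 1 control is left and assumed to vary like the irradiated group. Without irradiated replicates 1 and 2 the counts were 843 and 687 higher and 917 and 837 lower (related genes 6 and 7 higher, 11 and 12 lower), and without control replicate 3 the related genes called higher numbered 17. Without control replicate 3, when 1 control is likewise left, the counts over all genes were the highest of these runs in both directions. The low counts thus went with leaving out control replicate 2 and not with leaving out either control. The cause was not tested.

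The numbers 2 and 3 occur in both groups. Irradiated replicate 1 has no control of its number, so with a replicate block it adds nothing to the comparison. The block fits thus rest on replicates 2 and 3 of each group, which leaves little to estimate the spread. Across genes, the log2 ratios of replicate 2 to 3 in the controls correlated at -0.20 with those in the irradiated libraries. With a single library per number in each group, this value cannot show whether same-numbered libraries were made together. With the replicate block 585 genes were higher and 480 lower (related genes 4 and 8), with the replicate block and the length offset 11 and 18 (related genes 0 and 0), and with crossed numbers, a pairing added after the data were seen, 3043 were higher and 2683 lower. Nes rests on 32 to 83 reads per library, and 2 controls limit the precision of every value.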
